A study of Canis lupus familiaris with 21 samples.

Results

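The Toll-like receptors TLR1 to TLR9 and their adaptor MYD88 were examined in canine cutaneous histiocytoma (CCH). Members were taken by name from the table of normalized counts, which held all 10 of them among 800 probes. The rule used their names and no threshold on a measured value, although earlier results of these data were known when they were picked.

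Toll-like receptors are sensors of innate immunity that bind conserved microbial molecules or the body's own nucleic acids and damage products. TLR1, TLR2, TLR4, TLR5 and TLR6 sit at the cell surface, whereas TLR3, TLR7, TLR8 and TLR9 read nucleic acids inside endosomes. Binding recruits MyD88, or TRIF in the case of TLR3, and the signal passes through kinases and TRAF proteins to NF-kappaB and the interferon regulatory factors. In skin, Langerhans cells, other dendritic cells, macrophages, B cells and keratinocytes carry different sets of these receptors.

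CCH is a tumor of Langerhans cell origin, seen mostly in the skin of young dogs, that commonly regresses while lymphocytes move in. RNA from formalin-fixed, paraffin-embedded (FFPE) tumors of privately owned dogs was hybridized to an nCounter immuno-oncology panel, in which color-coded probes are counted one molecule at a time without amplification. Stages followed the histologic scheme of Cockerell and Slauson, and none of the groups was labelled with a treatment. Each group was set against the group of the other stage with the same kind of tissue and, here, also against tissue of the other kind.

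Group 1 was stage 1 tissue rich in tumor cells from 5 dogs aged 0.5 to 5.0 years, with no age given for 1 of them. Group 2a held tumor cell-enriched areas of stage 2 from 5 dogs aged 0.6 to 3.0 years. Group 2b held lymphocyte-enriched areas of stage 2 in 6 libraries, with ages from 0.3 to 6.0 years. Of these, 2 were from 1 dog each and 4 were pools of 3 or 4 dogs. For the pool of replicate 5, the study's supplement gives a lowest age of 0.5 years in place of 0.3. It gives no age for 1 dog in the pool of replicate 4. The dogs it lists for group 2b are not those it lists for group 2a, so the areas of stage 2 were compared across dogs. Group 3 held lymphocyte-enriched tissue of stage 3 from 5 dogs aged 1.5 to 9.0 years. Areas of stage 2 were punched from their blocks and embedded again, a step that is described for stage 2 only. Stage and this preparation therefore cannot be told apart in the stage comparisons. A pool averages over its dogs, so that the libraries of group 2b are not equal units, and the effect on p values was not tested.

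Values are normalized counts, scaled by the authors so that the reference genes of the panel were equal between libraries. Whole counts recovered from them summed to between 484696 and 1315188 per library, and group 1 had the lowest totals (484696 to 823763). The median probe stood at 159 to 259 normalized counts in groups 1 and 2a and at 324 to 363 in groups 2b and 3. DV200, a measure of RNA integrity given by the share of long fragments, was 64.5% to 71.2% in group 1 and 70.5% to 76.9% in the other groups. All 6 B cell markers on the panel were called higher in group 2b than in group 2a, with summed counts of 3591 to 7719 against 265 to 563, and the 6 T cell markers likewise (8316 to 15341 against 1745 to 5028). In group 3 against group 1, 5 of 6 B cell markers (939 to 5450 against 205 to 487) and 6 of 6 T cell markers (9299 to 15753 against 207 to 6888) were called higher. Of 4 Langerhans and dendritic cell markers measured, FLT3 and CCR6 were called lower in both lymphocyte-enriched groups. CD207, which defines Langerhans cells, was low in every library (7.56 to 38.5), also in tumor tissue. It was called lower in group 3 than in group 1. ITGAX was called in neither area comparison, with medians of 561, 658, 700 and 676 in groups 1, 2a, 2b and 3. In bulk tissue, fewer cells of a type and less RNA per cell cannot be told apart.

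**Figure D1:**
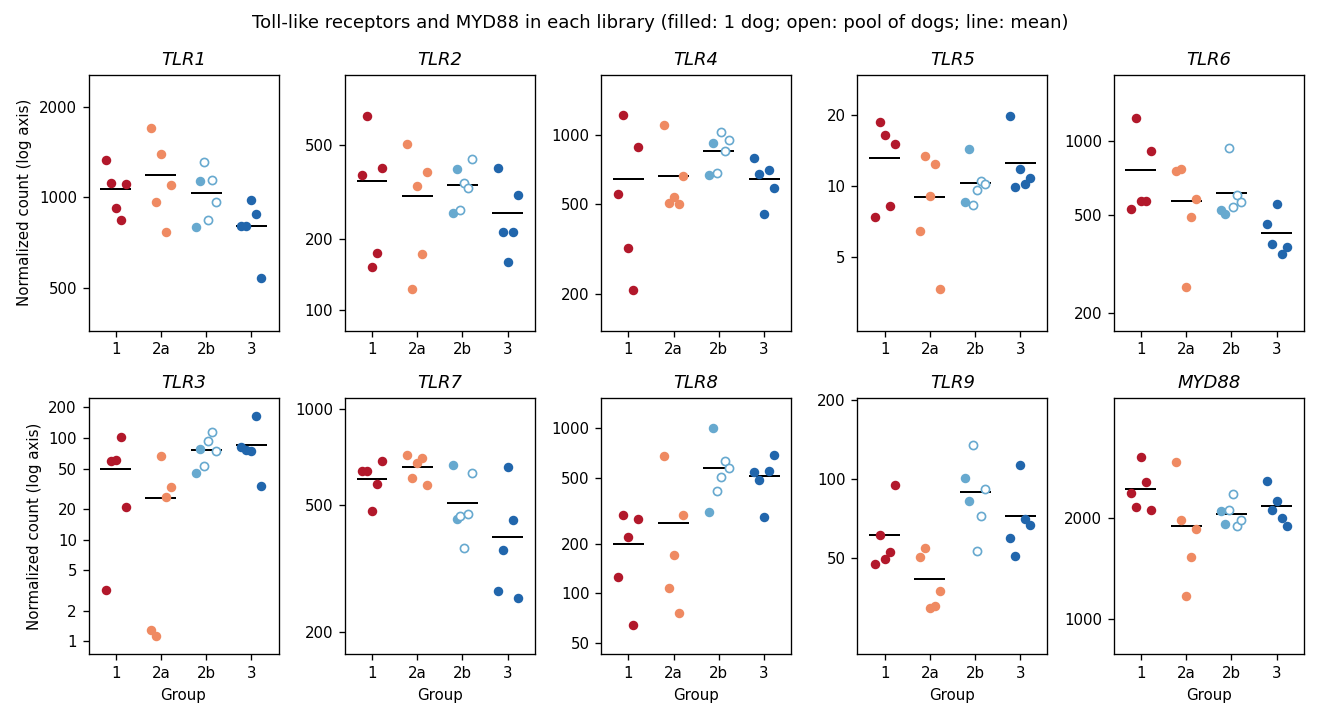
Normalized counts (log axis) of the 10 genes in each of the 21 libraries by group, with surface receptors first, then endosomal receptors and the adaptor. Filled points are libraries of 1 dog, open points are pools and lines are means. TLR3 had 1.29 and 1.12 in 2 libraries of group 2a, and TLR8 lay between 290.4 and 1008 in the lymphocyte-enriched groups.

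The 10 genes differed widely in how steady they were. On the log2 scale, centered on each gene's mean over the 21 libraries, the SD was 0.29 for MYD88, 0.36 for TLR1 and 0.43 for TLR7, against 1.06 for TLR8 and 1.73 for TLR3. The ranges of groups 2b and 2a, and those of groups 3 and 1, overlapped for all 10 genes. Over all probes, 25.4% and 23.5% had no overlap in these comparisons. Differences were tested with limma on log2 of the value plus 1. P values were adjusted (Benjamini-Hochberg, all 800 probes), and genes with an adjusted p up to 0.05 are called.

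Between the areas of stage 2, the lymphocyte-enriched group 2b had more TLR3, TLR8 and TLR9 than the tumor cell-enriched group 2a. These were 3 of the 10 genes, all endosomal receptors, and none was called lower. Over the whole panel 38.8% of probes were called in this comparison, 32.2% higher and 6.5% lower, so the share among the members was near the background. Late lymphocyte-enriched tissue (group 3) had more TLR8 and less TLR6 and TLR7 than early tumor tissue (group 1), again 3 of 10 genes, beside 39.9% of all probes (29.4% higher and 10.5% lower). That comparison joins stage and kind of area, which cannot be told apart in it.

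These splits depended on the scale. With every library shifted to an equal median, 0 members were called higher and 3 lower between the areas of stage 2 (MYD88, TLR1 and TLR7), and 0 higher and 5 lower between groups 3 and 1 (MYD88, TLR1, TLR2, TLR6 and TLR7). Of all probes, 52.1% were then called within stage 2 (13.9% higher and 38.2% lower) and 55.2% between groups 3 and 1 (14.4% higher and 40.9% lower). Quantile normalization gave 0 higher and 2 lower members within stage 2 (TLR1 and TLR7), beside 40.9% of all probes (17.2% higher and 23.6% lower). It gave 0 higher and 4 lower between groups 3 and 1 (MYD88, TLR1, TLR6 and TLR7), beside 45.5% of all probes (20.2% higher and 25.2% lower). Over all probes the median log2 fold change moved from 0.23 to -0.48 between the areas of stage 2 and from 0.14 to -0.52 between groups 3 and 1 when the medians were set equal. Higher TLR3, TLR8 and TLR9 are thus higher relative to the reference genes, and the 3 kept a positive difference in group 2b on every scale without being called on the others.

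**Figure D2:**
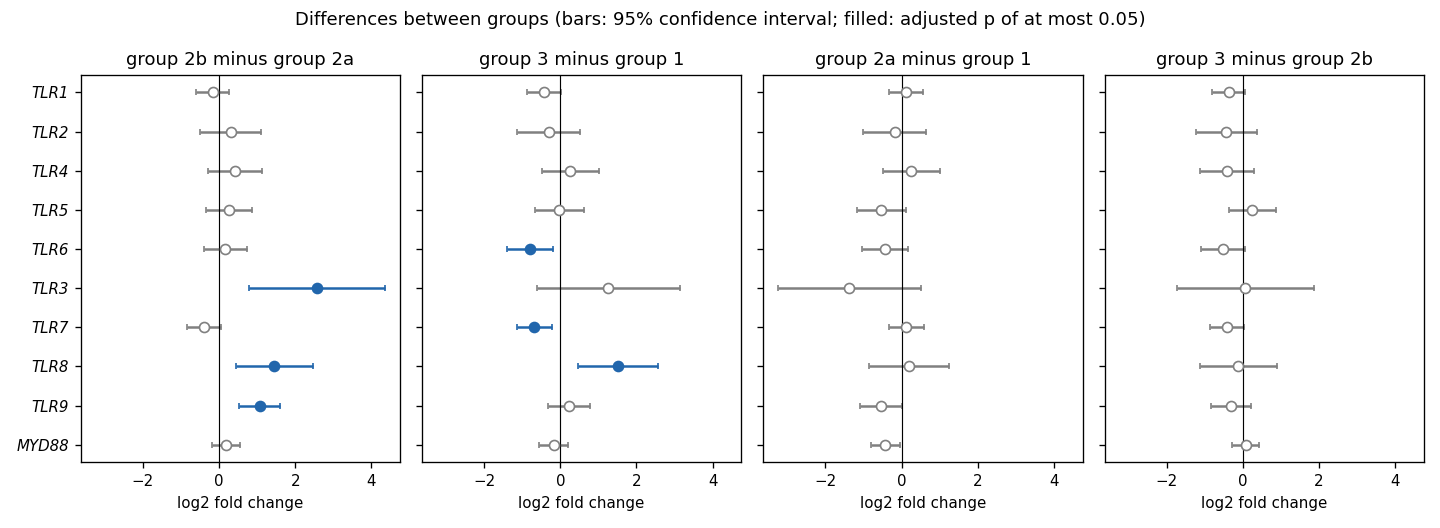
Log2 fold changes (x axis) of the 10 genes in 4 comparisons, with 95% confidence intervals from limma, and filled points for an adjusted p of at most 0.05. TLR3, TLR8 and TLR9 were called in group 2b minus group 2a, TLR6, TLR7 and TLR8 in group 3 minus group 1, and none in either stage comparison.

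Among the surface receptors, TLR2 pairs with TLR1 or TLR6 to bind bacterial lipoproteins. TLR1 ranged from 539 to 1707 over all libraries and TLR2 from 123 to 658. Mean TLR1 was 1063 ± 190 in group 1, 1186 ± 371 in group 2a, 1033 ± 199 in group 2b and 800.3 ± 163 in group 3 (SD, n = 5, 5, 6 and 5). TLR1 was not called in any comparison on the deposited scale, with 95% intervals of -0.59 to 0.26 between the areas of stage 2 and -0.86 to 0.026 for group 3 against group 1. With equal medians it was called lower in both, by -0.88 and -1.08 on the log2 scale.

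For TLR2 the means were 351 ± 205, 303 ± 155, 337 ± 70.5 and 258 ± 93.8 in groups 1, 2a, 2b and 3. The groups lay on top of each other, and the interval of group 2b minus group 2a ran from -0.49 to 1.10.

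TLR6, the second partner of TLR2, was lower in group 3 than in group 1. Group 1 had 530.02, 1235, 569, 568 and 909.5, and group 3 had 461, 380.4, 553, 346 and 372 (replicates 1 to 5). Only replicate 3 of group 3, at 553, lay within the range of group 1. The difference was -0.79 ± 0.29 on the log2 scale (SE), which corresponds to a 1.73-fold lower level, with an adjusted p of 0.0343 by limma. The call was lost without any 1 of 5 libraries, namely replicates 2 and 5 of group 1 and replicates 2, 4 and 5 of group 3 (adjusted p of 0.0643 to 0.104), and with DV200 as a covariate (adjusted p of 0.194). Within stage 2, TLR6 was at 255 to 771 in group 2a and at 505, 554 and 938 (lowest, median and highest) in group 2b, with a difference of 0.17 ± 0.27 that was not called.

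TLR4 binds bacterial lipopolysaccharide together with CD14 and LY96. Its widest range was in group 1, from 208 to 1225, and the other groups lay within it at 499 to 1100.5, 664 to 1028 and 449 to 795 (groups 2a, 2b and 3). Means were 638 ± 418, 659 ± 255, 851 ± 149 and 640.4 ± 131 in groups 1, 2a, 2b and 3. Neither area comparison called it, and with equal medians the difference turned from 0.42 to -0.30 within stage 2 and from 0.26 to -0.40 between groups 3 and 1.

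TLR5, the receptor for bacterial flagellin, was barely detected. It had 3.64 to 19.8 normalized counts, which were 4 to 16 whole counts per library, and 1.12% of probes had a lower mean. At this depth its group means of 13.2, 9.01, 10.3 and 12.5 were not distinguishable, and its interval within stage 2 ran from -0.35 to 0.88.

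TLR3 senses double-stranded RNA and signals through TRIF in place of MyD88. In group 2a it had 1.29, 1.12, 66.4, 26.0 and 32.7 in replicates 1 to 5. Group 2b had 45.8, 76.6 and 114 (lowest, median and highest). Replicates 1 and 2 of group 2a thus held 1 whole count each, and replicate 3 overlapped group 2b. TLR3 was 2.57 ± 0.86 higher in group 2b on the log2 scale (adjusted p of 0.0229 by limma), a 5.95-fold difference whose size rests on those low libraries. Without replicate 1 the adjusted p was 0.078 and without replicate 2 it was 0.0859, and on the recovered counts it was 0.094 with edgeR and 0.0649 with DESeq2, which put the log2 fold change at 1.56 and 1.58. With a pseudocount of 8 it was 1.73. Leaving out both, which was chosen after the values were seen, gave 0.91 with an adjusted p of 0.378.

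Outside stage 2 the TLR3 values also spread widely. Group 1 had 3.17, 59.4, 60.6, 102 and 20.8, and group 3 had 81.9, 76.3, 74.5, 163 and 33.5. Replicate 1 of group 1, at 3 whole counts, was the third library in which TLR3 was close to its floor. Whether such low counts reflect the TLR3 level of these tumors was not tested. The difference between these groups was 1.26 ± 0.90 and was not called (adjusted p of 0.281 by limma).

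TLR7 and TLR8 both recognize single-stranded RNA, and in the RefSeq annotation of the dog they are next to each other among the protein-coding genes. TLR8 was higher in both lymphocyte-enriched groups. Group 2a had 682, 108, 172, 75.9 and 299, and group 2b had 312, 541 and 1008 (lowest, median and highest). Replicate 1 of group 2a, at 682, exceeded 5 of the 6 libraries of group 2b, and the other 4 of group 2a lay below all of them. The difference was 1.45 ± 0.48 on the log2 scale, a 2.73-fold higher level (adjusted p of 0.0227 by limma). It was not called without replicate 2 or 4 of group 2a or replicate 2 of group 2b (adjusted p of 0.0552 to 0.0809), nor with edgeR (0.0788) or DESeq2 (0.0507). The 2 libraries of 1 dog in group 2b were its lowest and highest for TLR8, at 312 and 1008, and the pools lay between, from 416 to 631.

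Between groups 3 and 1, TLR8 showed a difference of similar size. Group 1 had 126, 299, 220.3, 64.2 and 282, and group 3 had 542, 488, 290.4, 547 and 690.2. All libraries of group 3 but replicate 3 were above the whole of group 1. The log2 fold change was 1.51 ± 0.50 (2.85-fold, adjusted p of 0.0231 by limma). It lost its call without replicate 1 or 4 of group 1 or replicate 5 of group 3 (adjusted p of 0.0524 to 0.0712) and with DV200 as a covariate (0.0951), and with equal medians it was 0.85 (adjusted p of 0.12).

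TLR7 went the other way. Group 1 had 640.05, 639, 477, 583 and 688, and group 3 had 268, 361, 657, 448 and 255. Of group 3, replicate 3 at 657 was inside the range of group 1 and the other 4 were below it. The difference was -0.69 ± 0.22, a 1.61-fold lower level (adjusted p of 0.0187 by limma), and on the other scales it was larger and called. Without replicate 1 or replicate 5 of group 3 it was not called (adjusted p of 0.0585 and 0.0596), nor in a fit of the 2 groups alone (0.0666). Within stage 2 TLR7 stood at 578 to 720.3 in group 2a and at 366, 464 and 666 in group 2b. Its difference of -0.40 ± 0.21 was not called on the deposited scale (adjusted p of 0.15 by limma), and was called with equal medians (-1.11, adjusted p of 0.0014).

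**Figure D3:**
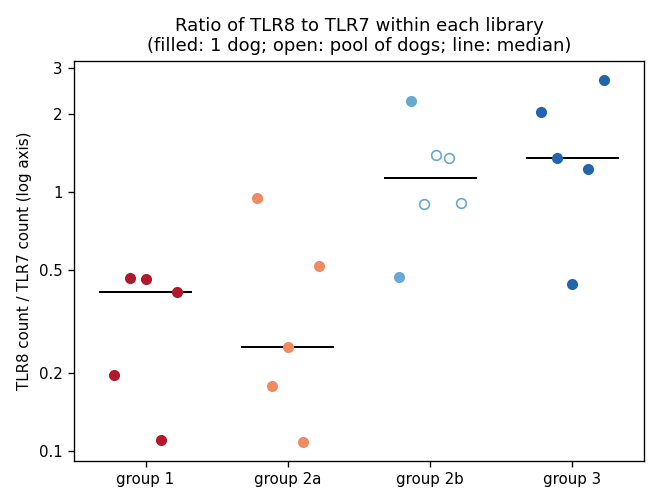
Ratio of the TLR8 count to the TLR7 count within each library (log axis) by group, with filled points for libraries of 1 dog, open points for pools and lines for medians. The ratio does not depend on the scaling of a library, and its median was 0.41, 0.25, 1.13 and 1.35 in groups 1, 2a, 2b and 3.

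A ratio within a library is free of the scaling, and TLR8 over TLR7 was computed after the values were seen, so it is given without a test. It was 0.11 to 0.47 in group 1, 0.11 to 0.95 in group 2a, 0.47 to 2.23 in group 2b and 0.44 to 2.71 in group 3. Within stage 2 the ranges overlapped. Replicate 1 of group 2a (0.946) was above replicates 1, 3 and 6 of group 2b (0.468, 0.902 and 0.909). Replicate 5 of group 2a (0.517) was above replicate 1 of group 2b. That lowest library of group 2b was just above the highest of group 1 (0.468 against 0.467). In group 3 only replicate 3 (0.442) lay within the range of group 1. The ratio of 2 probes has no meaning as a ratio of molecules, only its change between libraries does.

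TLR9 recognizes unmethylated CpG DNA and in humans is known from B cells and plasmacytoid dendritic cells. Group 2a had 50.4, 54.75, 32.2, 32.8 and 37.3, and group 2b had 53.0, 87.3 and 136 (lowest, median and highest). Only replicate 4 of group 2b, at 53.0, fell below a library of group 2a. TLR9 was 1.07 ± 0.25 higher on the log2 scale, or 2.09-fold (adjusted p of 0.00239 by limma). No single library removed this call, and it also held without the 4 pools (1.16, adjusted p of 0.0344), but with equal medians the difference was 0.35 (adjusted p of 0.301).

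For groups 1 and 3 the TLR9 values were close. Group 1 had 47.6, 61.1, 49.6, 52.7 and 94.7, and group 3 had 59.5, 50.9, 113, 70.6 and 66.97. The ranges overlapped almost in full, and the difference of 0.23 ± 0.26 was not called. The test of whether the area differences differed between the pairs of groups gave -0.83 ± 0.37 for TLR9, with an adjusted p of 0.569 by limma.

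MYD88 was the steadiest member. It was at 2373, 2161, 3047, 2576 and 2113 in group 1, at 2943, 1971, 1172, 1533 and 1855 in group 2a, at 1897, 2034 and 2368 (lowest, median and highest) in group 2b and at 2582, 2116, 2258, 1999 and 1899 in group 3. Group 2a held both the second highest and the lowest library of the series. On the deposited scale no difference was called, with intervals of -0.18 to 0.55 between the areas of stage 2 and -0.55 to 0.21 between groups 3 and 1. With equal medians MYD88 was called lower in both, by -0.53 (adjusted p of 0.0179) and -0.83 (adjusted p of 0.00109).

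**Figure D4:**
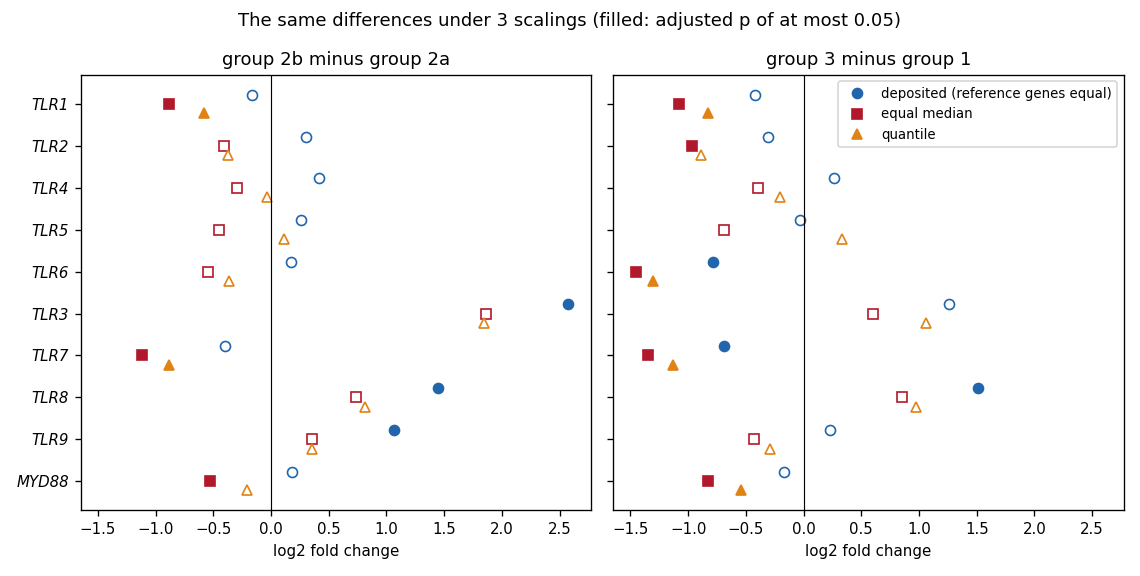
Log2 fold changes (x axis) of the 10 genes on the deposited scale (circles), with equal library medians (squares) and after quantile normalization (triangles), filled where the adjusted p was at most 0.05. TLR3, TLR8 and TLR9 were positive within stage 2 on all 3 scales, and TLR1, TLR2, TLR6, TLR7 and MYD88 were negative between groups 3 and 1 on all 3.

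The stage comparisons, for which the series was designed, called no member. Between the tumor cell-enriched groups 2a and 1, limma called 0 of 10 members beside 0.125% of all probes, and edgeR and DESeq2 on the recovered counts called 0 as well (0.0% and 2.5% of all probes). The lowest p belonged to MYD88, the 1 member with an unadjusted p under 0.05 beside 14.2% of all probes, at -0.43 ± 0.18 (adjusted p of 0.301 by limma). TLR3 had the widest interval, from -3.25 to 0.50, and TLR1 one of the narrowest, from -0.32 to 0.56. Between the lymphocyte-enriched groups 3 and 2b, limma, edgeR and DESeq2 again called 0 of 10, beside 0.125% of all probes by limma, and 0 members had an unadjusted p under 0.05 beside 6.25% of all probes. TLR7 came closest with -0.41 ± 0.21 (adjusted p of 0.887 by limma). For TLR8 the interval was -1.13 to 0.88 and for TLR9 -0.83 to 0.23, so that differences within these limits are not excluded.

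The 2 area comparisons were set against each other with (group 3 minus group 1) minus (group 2b minus group 2a), in which the pairs share no library. This equals (group 3 minus group 2b) minus (group 2a minus group 1), a difference between the 2 stage comparisons. Since group 3 minus group 1 joins stage and kind of area, it cannot show whether an area difference alone changed. Limma called 0 of 10 members and 0.0% of all probes, and edgeR and DESeq2 also called 0. An unadjusted p under 0.05 was reached by 7.12% of all probes and by 2 members, TLR6 (-0.96 ± 0.40) and TLR9 (-0.83 ± 0.37). For TLR8 the estimate was 0.06 ± 0.70, with an interval of -1.40 to 1.52.

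TLR10 was not among the members and was looked at after its values were seen. It lies beside TLR1 in the RefSeq annotation and belongs to the same subfamily. Group 1 had 297 to 453 and group 3 had 55.1 to 244, without overlap, as did 23.5% of all probes in that comparison. The difference was -1.98 ± 0.42 on the log2 scale (3.93-fold lower, adjusted p of 0.00103 by limma), and was called under all 33 alternatives. Within stage 2 it was at 111 to 595 in group 2a and 95.9 to 281 in group 2b, and the difference of -0.69 ± 0.40 was not called on the deposited scale.

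Replicate 3 of group 3 was the only library of its group to overlap group 1 in each of TLR6, TLR7 and TLR8, and it also had the highest TLR9 and TLR10 of group 3. Its summed B cell markers were 5450, against 939 to 2298 in the other libraries of group 3, and its summed macrophage and monocyte markers were 4261, against 5705 to 7804. It also had the highest Langerhans and dendritic cell sum of group 3 (2133, against 1263 to 1352). Its T cell sum was the lowest there (9299, against 12139 to 15753). In group 2b, replicate 3 also had the highest TLR6 (938), TLR9 (136) and B cell sum (7719). Its TLR7 (461) and TLR8 (416) were at neither end of the range of group 2b. In group 1, by contrast, the library with the highest TLR9 (94.7, replicate 5) had the lowest B cell sum (205). The part of B cells and of the other cell types in these levels was not tested.

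Macrophage and monocyte markers moved less between groups. Of 7 such markers, CD68 and MSR1 were called higher in group 2b than in group 2a, and CD68 and MSR1 higher and MRC1 lower in group 3 than in group 1. Their sums were 2911 to 7811 in group 1, 2997 to 7750 in group 2a, 4699 to 7545 in group 2b and 4261 to 7804 in group 3. Replicate 1 of group 2a, the library with high TLR8, also had the highest macrophage sum of its group (7750). Both were likewise highest in replicate 2 of group 1 (TLR8 of 299, sum of 7811) and in replicate 2 of group 2b (1008 and 7545). Group 3 differed: its highest TLR8 (690.2, replicate 5) came with a sum of 5811, and its highest sum (7804, replicate 1) with a TLR8 of 542. SPIB, one of the 2 plasmacytoid dendritic cell markers measured and also a B cell gene, was called higher in both area comparisons, whereas IL3RA, the other, stayed at 11.1 to 39.8 in every library. Neutrophil markers ranged most widely of these lists (389 to 37750 as a sum of 5), and 0 of 5 were called in either area comparison. Of 4 keratinocyte markers TP63 was called lower in group 2b, and of 4 mast cell markers FCER1A was called lower in group 3. The part of these cells in the TLR levels was not tested.

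Genes downstream of and around the receptors were counted from 7 lists with 83 genes on the panel. In group 2b against group 2a, 22 were called higher and 6 lower, beside 32.2% and 6.5% of all probes, with a median log2 fold change of 0.13 beside 0.23 over all probes. In group 3 against group 1, 21 were higher and 6 lower, beside 29.4% and 10.5% of all probes, with a median of 0.02 beside 0.14. The share called in the lists, 33.7% and 32.5%, was below the 38.8% and 39.9% of all probes. In both stage comparisons 0 were called by limma.

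Of the adaptors and kinases, 17 of 24 listed genes were measured, and most resembled MYD88 in not being called. TRAF3, a ubiquitin ligase on the route to interferon, was 5.34-fold higher in group 2b (897 ± 136) than in group 2a (195 ± 109). IKBKE, a kinase that activates IRF3, was 1.88-fold higher. IRAK4, the first kinase bound by MyD88, was called lower by -0.44 ± 0.14 (adjusted p of 0.0145 by limma). Each of the 3 was without overlap between the groups, as were 25.4% of all probes. Between groups 3 and 1, TRAF3 (3.05-fold) and IKBKE (1.90-fold) were higher, and BTK, a kinase that also acts below TLRs, and IRAK4 were lower. With equal medians 13 of these 17 genes were called lower in each area comparison, beside 38.2% and 40.9% of all probes.

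Of 10 transcription factors, 6 were called higher in both area comparisons (IRF1, IRF3, IRF8, NFKB2, RELA and RELB) and 0 lower, with medians of 0.55 and 0.65. Of all probes 32.2% and 29.4% were called higher, and no difference between the list and the panel was tested. IRF8, which dendritic and B cells need, rose from 367 ± 167 in group 2a to 2084 ± 587 in group 2b, a 6.02-fold difference. NFKB2, a subunit of the noncanonical NF-kappaB pathway, had means of 764 ± 154 and 1533 ± 85.7 there. With equal medians 2 were called higher and 2 lower in each comparison, the higher ones being IRF1 and IRF8 within stage 2 and IRF1 and NFKB2 between groups 3 and 1.

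Feedback inhibitors numbered 8 on the panel. Of these, 4 were called higher (NFKBIA, SIGIRR, SOCS1 and TOLLIP) and 1 lower (CYLD) within stage 2. Between groups 3 and 1, 5 were called higher (the same 4 and TNFAIP3) and 0 lower. The shares over all probes were 32.2% and 29.4% higher, and 6.5% and 10.5% lower. No difference between this list and the panel was tested. SIGIRR, which restrains TLR and interleukin 1 receptor signals, was 2.68-fold higher in group 2b and 2.97-fold higher in group 3, and was called on every scale. SOCS1, which curbs cytokine and TLR signals, had a mean of 159 ± 40.2 in the tumor cell-enriched and 631 ± 203 in the lymphocyte-enriched areas of stage 2. NFKBIA, the inhibitor of NF-kappaB, had 1427 ± 304 in group 1 and 3488 ± 527 in group 3. The list's medians of 0.40 and 0.76 became -0.32 and 0.10 with equal medians.

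Among 22 target genes of the pathway, 7 were called higher and 1 lower within stage 2, and 6 higher and 2 lower between groups 3 and 1. These shares were near those of all probes (32.2% and 29.4% called higher). The chemokines CCL3 and CCL4 were called higher in both, and on all 3 scales. Mean CCL4 was 280 ± 103 in group 2a, 1494 ± 503 in group 2b, 327 ± 264 in group 1 and 1732 ± 361 in group 3. NOS2, the inducible nitric oxide synthase, was 4.86-fold higher in group 2b, with no overlap. CCL5 was higher in group 3 than in group 1 by 2.87 ± 0.81 on the log2 scale (7.33-fold, adjusted p of 0.00811 by limma), with overlapping ranges (26193 to 89603 and 469.7 to 28383). Without replicate 1 of group 1, its lowest library, the CCL5 difference was 1.94, and with DV200 as a covariate it was not called (adjusted p of 0.0867). CD86, a costimulatory ligand of antigen-presenting cells, was lower in both, and IL10 was lower in group 3. T cells also make CCL3, CCL4 and CCL5, and the part of the T cell markers given above in these levels was not tested.

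Of the co-receptors, chaperones and ligands, 1 of 10 was called in each area comparison, beside 38.8% and 39.9% of all probes. LBP, which carries lipopolysaccharide, was higher in group 2b at 20.4 ± 4.68 against 10.7 ± 4.84, close to the lower end of the panel (adjusted p of 0.0451 by limma). The call of LBP was lost in 21 of 32 alternatives, 13 of them with 1 library left out. CD180, a relative of TLR4 without a signaling domain, was at 565 ± 172 in group 3 against 1111 ± 263 in group 1.

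Of 7 measured genes of other MyD88-using receptors and their ligands, IL1RL1, IL18R1 and IL18RAP were lower and IL18 higher in group 2b than 2a. Between groups 3 and 1, 0 were called. The shares over all probes were 38.8% and 39.9% in these comparisons. IL1RL1, the receptor for interleukin 33, ranged from 46.4 to 1301 in group 2a and from 26.0 to 166 in group 2b. Its call was lost in 11 of 33 alternatives, 7 of them with 1 library left out (-2.39 to -1.19 on the log2 scale), and that of IL18 in 21 of 33, 14 of them with 1 library left out. Of 9 measured sensors outside the family, NLRC5, a regulator of MHC class I genes, was higher in both (2.55-fold and 2.85-fold) and on every scale. NOD1 was lower between groups 3 and 1, and MAVS was 0.52 ± 0.19 higher there but turned to -0.14 with equal medians.

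**Figure D5:**
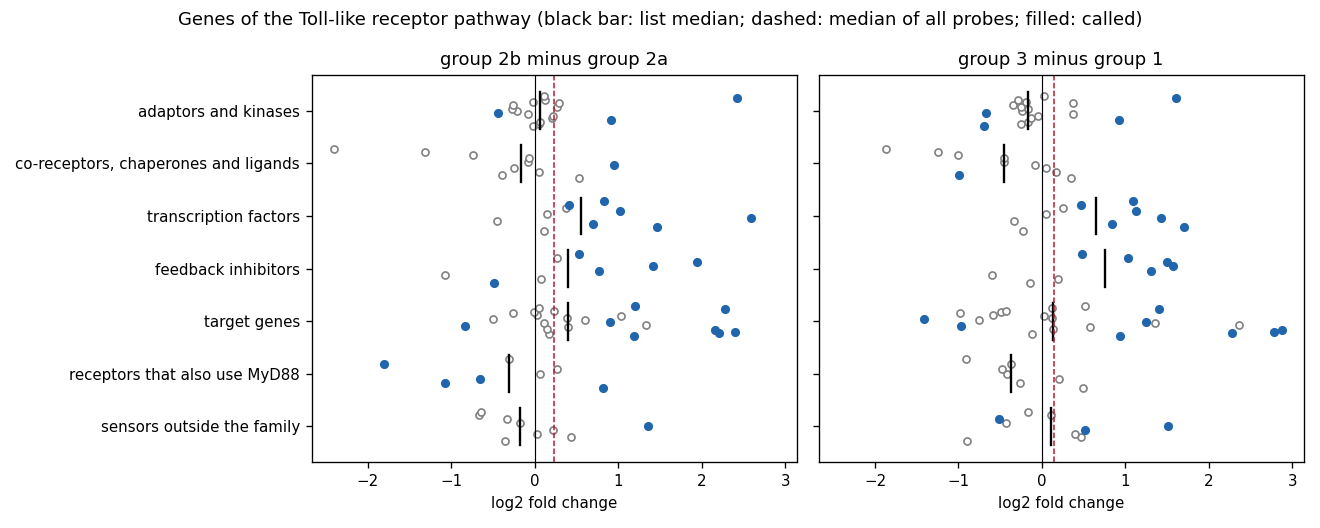
Log2 fold changes (x axis) of 83 pathway genes in 7 lists for both area comparisons, one point per gene, filled where called. Black bars are list medians and the dashed line is the median of all probes (0.23 and 0.14). Called transcription factors all lie to the right of 0, and the adaptors and kinases cluster near it.

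For 8 of the members the nearest other probe is given, by the root mean square difference of centered log2 values over the 21 libraries. MYD88 was nearest to NRAS (0.18), TLR7 to BTK (0.28), TLR1 to FBXW11 (0.29), TLR9 to LOC606890 (0.36), TLR2 to LRP1 (0.38), TLR4 to CCR1 (0.39), TLR8 to IGF2R (0.50) and TLR3 to TRAF3 (1.03). The median distance of all probes was 0.63 for MYD88 and 1.73 for TLR3, whose nearest probe was thus still far. Within the family, TLR1 and TLR7 (0.38) and TLR2 and TLR4 (0.41) were the closest pairs, and TLR3 was the farthest member from each of the others.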

How the data were processed

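RNA from 21 FFPE libraries was measured on an nCounter panel of 800 probes. The deposited signal values are probe counts that the authors checked and normalized in nSolver at default settings, with 1 factor per library. Whole counts were recovered by dividing by the step of each library: with a tolerance of 0.01, all values were whole in 20 libraries and 99.9% in the other. A further check on the lowest values alone was met in 9 libraries, and the counts of the other 12 rest on the step search, with too few values near the lowest for that check. Since 18 values had been raised to 1, counts near the floor are less certain. All columns were mapped to a group (0 left over).

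Log2 of the value plus 1 was fitted with limma 3.58.1 (R 4.3.3, lmFit and eBayes with trend) over all 21 libraries with 4 group means. Tests were two-sided, adjusted by Benjamini-Hochberg over 800 probes and called at 0.05. The labels do not pair the replicates. Alternatives were a pseudocount of 8, a filter at a mean of 50, equal medians, quantile normalization, fits of 2 groups, DV200 as covariate (from the labels, which differ from the study's own supplement for replicate 5 of group 3), a replicate block, edgeR 4.0.16 and DESeq2 1.42.0 on recovered counts, Benjamini-Yekutieli adjustment and leaving out each library, plus 2 added after the data were seen. The fits were tested on simulated data. Members and gene lists were chosen with earlier results of these data known. Named are all members, up to 3 called genes of the largest change per pathway list and area comparison, every pathway gene called in a stage comparison, the nearest probe of each member (not reported here for TLR5 and TLR6) and the markers; TLR10 and other called list genes came after the values were seen. RefSeq held 9 of the 10 members and 773 of 800 probes by symbol, and was used for names and neighbors only.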

Additional observations from a re-analysis of the deposited data

Results flagged for a closer look

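In 6 of 44 sets of 1 gene in 1 group (the 10 members and TLR10 in 4 groups), the highest library stood apart from the rest by Dixon's criterion on the normalized counts, which chance does in about 1 of 20 sets. TLR5 in replicate 1 of group 3 was at 19.84, against 11.9 in the next library, and TLR6 in replicate 3 of group 2b was at 938.13, against 604 in the next. Both also stood apart on the log2 scale. The other 4 did so on the linear scale only: TLR4 at 1100.5 in replicate 1 of group 2a (next 657), TLR5 at 14.38 in replicate 2 of group 2b (next 10.5), TLR9 at 94.74 in replicate 5 of group 1 (next 61.1) and TLR10 at 243.95 in replicate 3 of group 3 (next 90.5). The TLR5 values amount to 16 and 12 whole counts.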

How the results depend on the processing

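Within stage 2, 3 members were called by limma as reported, and 1 (TLR9) with edgeR, DESeq2, the Benjamini-Yekutieli adjustment or the 4 pools left out. For groups 3 and 1 the count was 3, and became 5 with equal medians, 1 (TLR7) with DV200 as a covariate and 0 with the Benjamini-Yekutieli adjustment. Leaving out 1 library gave 1 to 3 and 0 to 3 calls, with 1 within stage 2 without replicate 2 of group 2a and 0 between groups 3 and 1 without replicate 5 of group 3. A replicate block left 3 calls within stage 2 and 2 between groups 3 and 1 (TLR6 at an adjusted p of 0.0604). Deviations of same-numbered samples from their group means correlated weakly (r from -0.36 to 0.30, over 0.1 in 13 of 30 pairs). In 10 of the 30 pairs, the first sample correlated best with its own number in the other group. The labels do not pair the samples. The study's supplement lists separate dogs for each group, with tumors that differ in breed, age or site, so same numbers do not mark the same dog.

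Directions turned as follows, as log2 fold changes. With equal medians, group 2b minus 2a became -0.41 for TLR2, -0.30 for TLR4, -0.45 for TLR5, -0.54 for TLR6 and -0.53 for MYD88, and group 3 minus 1 became -0.40 for TLR4, -0.43 for TLR9 and -0.14 for MAVS. Quantile normalization gave -0.37 for TLR2, -0.032 for TLR4, -0.36 for TLR6 and -0.21 for MYD88 in the former, -0.20 for TLR4, 0.34 for TLR5, -0.29 for TLR9 and -0.10 for MAVS in the latter, and 0.093 for TLR5 in group 2a minus 1. DV200 as a covariate gave 0.33 for TLR5 (3 minus 1), -0.20 for TLR1 and -0.076 for TLR7 (2a minus 1). Without the pools TLR6 was -0.047 within stage 2. Without replicates 1 and 2 of group 2a, TLR3 was 0.29 and TLR8 -0.13 in group 2a minus 1, and MYD88 was called within stage 2 (0.46, adjusted p of 0.0374).

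Leaving out 1 library in turn gave TLR6 within stage 2 values from -0.093 to 0.30. For group 3 minus 1 it gave TLR4 from -0.072 to 0.57 and TLR5 from -0.20 to 0.11. For group 2a minus 1 it gave TLR1 from -0.026 to 0.26, TLR2 from -0.43 to 0.10, TLR4 from -0.075 to 0.56 and TLR8 from -0.26 to 0.53. For group 3 minus 2b it gave TLR3 from -0.21 to 0.35 and TLR8 from -0.28 to 0.065. The cause of these changes was not tested. A pseudocount of 8 changed the call or direction of 0 of 40 member results, but shrank TLR3 within stage 2 from 2.57 to 1.73 and, in group 2a minus 1, TLR3 from -1.37 to -0.85 and TLR5 from -0.54 to -0.32. The filter on low means changed the call or direction of 0 of 36, since it removed TLR5. Among the named pathway genes, calls were not kept in 21 of 32 alternatives for LBP, and of 33 in 21 for IL18, 11 for IL1RL1, 10 for MAVS, 7 for NOD1, 5 each for BTK, IRAK4 within stage 2 and SOCS1 between groups 3 and 1, 4 for IL18R1 and at most 2 for the others.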
